A study of Arabidopsis thaliana with 12 samples.

Results

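The response of wild-type Arabidopsis thaliana seedlings of the Ws accession to abscisic acid (ABA) was measured on 6 of the 12 arrays of the series, taken by their titles. Of these, 3 arrays held Ws seedlings given 1 µM ABA, dissolved in DMSO, and 3 held Ws seedlings given DMSO alone as a mock treatment. Both groups had grown for 7 days in liquid medium with 3% sucrose, shaken at 150 rpm, and were treated for 4 hours. The other 6 arrays held rop10-1 seedlings, which carry a mutation in the small GTPase gene ROP10, with the same ABA and mock treatments. RNA came from whole seedlings and was read on Affymetrix ATH1 arrays, which measure each transcript with a set of short probes. The design text calls the replicates biological, and their number limits the precision.

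ABA is the plant hormone of drought, cold and seed dormancy. Its receptors bind the hormone and block a group of protein phosphatases, which frees kinases that activate bZIP transcription factors and ion channels. In seedlings the hormone is known to induce proteins that protect cells from water loss, to close stomata and to slow growth. Receptors, phosphatases and kinases of this pathway had no probe set assigned to one such gene alone, and were not analysed here.

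The deposited values are intensities on a linear scale, with medians of 180.2 to 195.6 on the ABA arrays and 184.5 to 203.3 on the mock arrays. Values are given below as intensities per array in the order of replicates 1, 2 and 3, and differences as ABA minus mock on the scale log2(intensity + 16) with their standard error, which understates the change of dim probe sets. An adjusted p under 0.05 in a limma fit over 15922 probe sets, with the replicate number as a block, was taken as a call. The fit held all 12 arrays, so standard errors and p rest on a spread shared by both genotypes, not on the Ws pairs alone. Seedling tissue was seen in its markers: RCA, the activase of Rubisco, averaged 13003 ± 54 with ABA and 13565 ± 683 in mock (SD, n = 3 each), and PYK10, a beta-glucosidase of roots, averaged 13290 ± 271 with ABA and 14103 ± 488 in mock. The 5 pollen genes measured and the meristem gene CLV3 lay below the filter on low values, with at most 58.9 on any Ws array. Of 8 reference genes and 9 nuclear photosynthesis genes none was called, and their differences lay between -0.12 and 0.12. The log2 ratio of 3′ to 5′ signal of ubiquitin, a measure of RNA integrity, was 0.64, 0.74 and 0.75 with ABA, against 0.82, 0.98 and 1.1 in mock, so the groups did not overlap. For actin it was 2.05, 2.4 and 2.23 with ABA, against 2.39, 2.63 and 2.44 in mock. For GAPDH it was -0.27, -0.57 and -0.41 with ABA, against -0.28, -0.53 and -0.47 in mock, and the groups overlapped. The part of these ratios in the results was not tested.

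ABA changed 2495 of 15922 probe sets, 15.7% of those tested, of which 1259 (7.91%) were higher and 1236 (7.76%) lower. Over all probe sets, the 2 directions were alike in number but not in size. A rise of at least 2-fold was found for 419 probe sets (2.63%) and a fall of that size for 195 (1.22%). At a log2 difference of 3 or more, 29 were higher and 4 lower. The filter on the mean of all arrays and the added 16 leave probe sets that are dim in mock seedlings more room to rise than to fall on this scale. The 3 replicate pairs showed one direction for 2491 of the 2495 calls, and for 1839 the 3 ABA and 3 mock values did not overlap, beside 21.2% of all tested probe sets. The calls were chosen by a test on these same pairs, so such agreement among them was largely built in. Across probe sets, the differences within pairs correlated at Pearson r = 0.71 to 0.73, as a description over features that share arrays. Without the block, 1042 probe sets (6.54%) passed, 645 higher (4.05%) and 397 lower (2.49%), and all of them were among the 2495. That kept 51.2% of the higher calls and 32.1% of the lower calls.

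**Figure D1:**
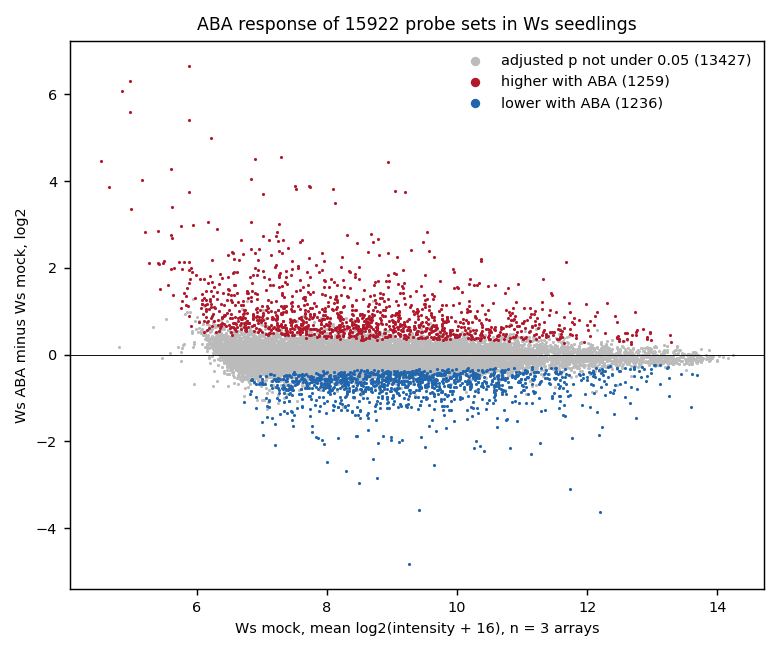
Difference between Ws ABA and Ws mock seedlings (y axis, log2) against the mock level (x axis, mean log2(intensity + 16) of 3 arrays) for each tested probe set. Red points mark the 1259 probe sets that were higher with ABA, blue points the 1236 that were lower and grey points those that did not pass; the red points reach further from 0.

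Late embryogenesis abundant (LEA) proteins and dehydrins are hydrophilic proteins that protect membranes and proteins when cells lose water. Of 10 tested members of this list, 8 were higher with ABA (80%) and 0 lower, beside 7.91% and 7.76% of all probe sets. The median difference was 2.27, beside -0.04 over all probe sets. AT3G02480, an LEA gene, read 2434, 1708 and 3541 with ABA, against 28, 2.3 and 21.8 in mock (log2 difference 6.3 ± 0.25, adjusted p = 6.7e-08). LEA4-5 read 1271, 1687 and 1571 with ABA, against 33.2, 6 and 12.1 in mock (5.6 ± 0.25, adjusted p = 9e-08). Both genes were near the lowest readings of the arrays in all mock seedlings and high in all ABA seedlings. AT3G17520, a further LEA gene, read 479.6, 439 and 572 with ABA, against 2.7, 9.8 and 9.5 in mock (4.47 ± 0.23).

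The cold-regulated pair COR15A and COR15B encodes proteins that stabilise chloroplast membranes in freezing. COR15A read 2406, 3556 and 3397 with ABA, against 159.5, 199 and 238 in mock (3.86 ± 0.16, adjusted p = 8.6e-08). Its neighbour on chromosome 2, COR15B, read 527, 813 and 1115 with ABA, against 133, 137 and 141 in mock (2.38 ± 0.19, adjusted p = 6.1e-06). The dehydrins LTI30 and COR47 were already bright in mock seedlings and differed less. LTI30 read 4729, 7372 and 5868 with ABA, against 1372, 1168 and 1385 in mock (2.16 ± 0.19). COR47 read 16406, 12496 and 11894 with ABA, against 9625, 6102 and 5432 in mock (0.98 ± 0.12). The LEA gene AT2G44060 was called at 0.32 ± 0.08 but did not pass without the block (adjusted p = 0.21). AT1G54410 and AT2G46140 did not pass, at 0.1 and -0.08. A further 3 members lay below the filter on low values, which a gene passes more easily if ABA raises it. LEA18 among them read 141, 98.5 and 123 with ABA, against 1.1, 0.9 and 4.1 in mock. With no filter, 11 of the 13 were higher.

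Anthocyanins are the red and purple flavonoid pigments that seedlings form under stress. All 4 measured genes of this pathway were higher with ABA, beside 7.91% of all probe sets, with a median of 2.3. The list held 17 loci, and most had no probe set assigned to them alone. DFR, the reductase that commits the pathway to anthocyanins, read 426, 822 and 793 with ABA, against 78.4, 111 and 142 in mock (2.44 ± 0.16, adjusted p = 1.6e-06). AT4G14090, an anthocyanin glucosyltransferase, read 501, 609 and 596 with ABA, against 63.8, 58.6 and 66.3 in mock (2.89 ± 0.23, adjusted p = 7.4e-06). UF3GT, which adds a sugar to anthocyanins, read 339, 519.5 and 469 with ABA, against 107, 86.5 and 64.5 in mock (2.17 ± 0.18). In none of the 3 did an ABA array reach down to a mock array. AT5MAT, which adds a malonyl group, was the least changed, with 162, 121 and 161 with ABA, against 62.3, 70.4 and 52.2 in mock (1.07 ± 0.22, adjusted p = 0.006). All 4 also passed without the block. With the dimmest 50% of probe sets left out, the count of this list was 1.

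**Figure D2:**
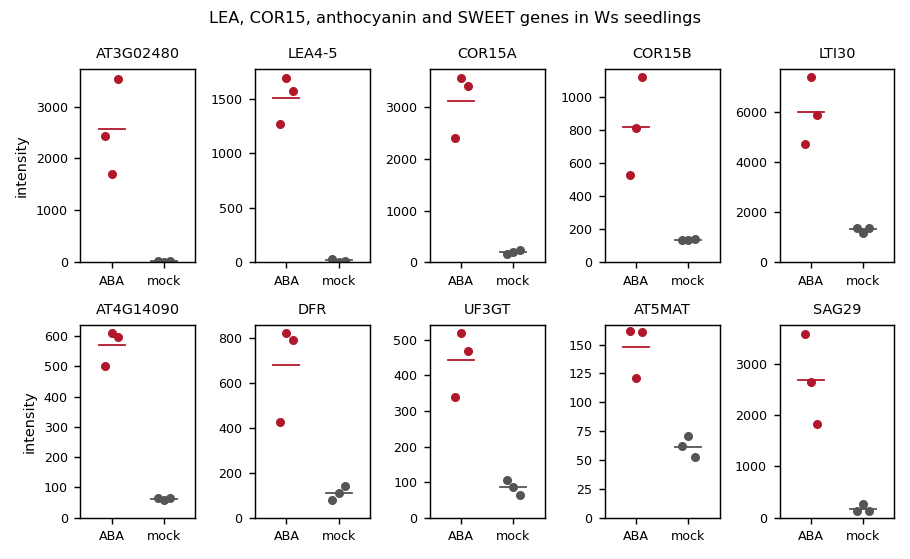
Intensity (linear axis from 0) on each of the 3 Ws ABA arrays (red) and 3 Ws mock arrays (grey) for 10 genes, with a line at each mean. In every panel the 3 ABA points lie above the 3 mock points; AT3G02480 and LEA4-5 lie close to 0 in mock.

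UDP-glycosyltransferases attach sugars to hormones, flavonoids and phenolic compounds. Of 34 tested members 8 were higher (23.5%) and 3 lower (8.82%), beside 7.91% and 7.76% of all probe sets, and the median was 0.24. The share that was lower is thus near that of all probe sets. The largest fall was that of UGT72E1, which glucosylates lignin precursors, with 365, 295 and 189 with ABA, against 1507, 1378 and 1172 in mock (-2.23 ± 0.21, adjusted p = 2.7e-05). UGT85A4 read 133, 93.2 and 125 with ABA, against 348, 394 and 302 in mock (-1.46 ± 0.16). UGT71C5, which glucosylates ABA itself, was lower at -0.7 ± 0.12 (adjusted p = 0.0022). Of the 8 that were higher only UF3GT also passed without the block, and all 3 that were lower did. Of the other genes of ABA turnover, the ABA glucosyltransferase UGT71B6 (0.26 ± 0.16, adjusted p = 0.31) and the ABA glucosidase BGLU33 (0.04 ± 0.16, adjusted p = 0.91) did not pass. Nor did the bZIP factor EEL (-0.18 ± 0.22) or SCN1, a regulator of ROP GTPases (0.23 ± 0.12).

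SWEET proteins carry sugars across membranes. Of 12 tested members 4 were higher (33.3%) and 1 lower (8.33%), beside 7.91% and 7.76% of all probe sets. SWEET3, higher at 0.63 ± 0.18, lost its call without the block (adjusted p = 0.2). SAG29, a sucrose transporter also called SWEET15, read 3584, 2636 and 1826 with ABA, against 134, 259 and 137 in mock (3.82 ± 0.21, adjusted p = 5.7e-07). SWEET13 (1.13 ± 0.17) and SWEET4 (1.03 ± 0.17) differed by about 2-fold. SWEET16, a carrier of the vacuole membrane, was lower, with 163, 94.2 and 113 with ABA, against 384, 148 and 398 in mock (-1.14 ± 0.22), and its groups overlapped. The paired sugar carriers of the same membrane moved apart: TMT2 was higher at 0.81 ± 0.15 and TMT1 lower at -0.62 ± 0.10, with 1027, 1159 and 1187 with ABA, against 1673, 1756 and 1791 in mock for TMT1. APL3, a large subunit of the enzyme that makes ADP-glucose for starch, read 342, 550.0 and 491 with ABA, against 176, 235 and 169.7 in mock (1.17 ± 0.14, adjusted p = 0.00014). Its relative APL4 was higher at 1.01 ± 0.18, with an adjusted p of 0.052 without the block.

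Beta-glucosidases split sugars from hormone and defence conjugates. Of 11 tested members 4 were higher and 0 lower, and BGLU24 was the largest, with 1037, 367 and 514 with ABA, against 99.5, 38.5 and 42.5 in mock (3.06 ± 0.21, adjusted p = 2.2e-06). Its neighbour AT5G28520 read 3502, 1541 and 2436 with ABA, against 89.9, 27.5 and 72.3 in mock (5.0 ± 0.28). The other 3, BGLU45 (1.14 ± 0.21), BGLU40 (0.57 ± 0.15) and BGLU16 (0.45 ± 0.12), did not pass without the block. Among detoxifying enzymes, ALDH7B4 (1.05 ± 0.17) and ALDH3F1 (0.65 ± 0.12) were the 2 called of 8 aldehyde dehydrogenases, and GSTU16 (0.91 ± 0.15) the 1 called of 12 glutathione transferases (8.33%), a share near the 7.91% of all probe sets that were higher. ALDH7B4 lost its call without the block (adjusted p = 0.077). NDB2, an alternative NADH dehydrogenase of mitochondria, was higher at 0.98 ± 0.19, with an adjusted p of 0.13 without the block.

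PUB19, a U-box ubiquitin ligase known to dampen ABA responses, read 832, 1124 and 643 with ABA, against 120.2, 128 and 95.7 in mock (2.73 ± 0.19, adjusted p = 3.2e-06). The related ligase PUB22 was lower at -0.8 ± 0.18, with an adjusted p of 0.13 without the block, and the other 5 tested PUB genes did not pass. UBC32, UBC29 and UBC30, which hand ubiquitin to ligases, were higher at 0.56, 0.52 and 0.36, 3 of 10 tested, and UBC30 lost its call without the block (adjusted p = 0.19). Of 10 autophagy genes 4 were higher and 0 lower, with a median of 0.27. These 4 belong to the ATG8 group, which coats autophagosomes. ATG8H read 1007, 866 and 764 with ABA, against 599, 411 and 492 in mock (0.8 ± 0.12, adjusted p = 0.00097). It was the 1 of the 4 that passed without the block. The count also dropped to 1 with no intensity trend, to 2 with the Ws arrays alone and the block, to 1 on leaving out Ws mock replicate 2, Ws ABA replicate 2, Ws ABA replicate 3 or rop10-1 mock replicate 3, and to 2 on leaving out Ws mock replicate 1 or 3. None of 12 deubiquitinating enzymes was called, beside 15.7% of all probe sets.

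Cell wall genes moved in both directions. Expansins, which loosen walls during growth, had 3 of 13 tested members higher and 3 lower (23.1% each), beside 7.91% and 7.76% of all probe sets. EXPA16 read 565, 508 and 455 with ABA, against 107, 95 and 66.3 in mock (2.33 ± 0.15, adjusted p = 1.3e-06). EXLB1 was higher at 1.25 ± 0.18 and EXPB3 lower at -0.85 ± 0.13. EXPA8 read 55.9, 53.2 and 54.7 with ABA, against 63.7, 237 and 259 in mock (-1.33 ± 0.33), and its mock arrays differed more among themselves than its ABA arrays. Without the block EXPA8 did not pass (adjusted p = 0.092), nor did EXPA4 (adjusted p = 0.057), which was higher at 1.01 ± 0.16 with it.

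TBL proteins add acetyl groups to wall polymers, and of 16 tested 2 were higher (12.5%) and 3 lower (18.8%), beside 7.91% and 7.76% of all probe sets. TBL26 was higher at 0.84 ± 0.16, and TBL41, higher at 0.53 ± 0.13, lost its call without the block (adjusted p = 0.2). TBL45 read 148, 109 and 110.1 with ABA, against 415, 695 and 534 in mock (-2.01 ± 0.20, adjusted p = 3.8e-05). CSLA03, of a family that makes mannans, read 161, 169 and 194 with ABA, against 310.5, 444 and 584 in mock (-1.24 ± 0.17). CSLC04, which makes the xyloglucan backbone, was lower at -0.86 ± 0.16. Both were lower in all 3 pairs with no overlap, and the other 6 cellulose synthase-like genes did not pass. Of 7 tested xyloglucan endotransglucosylases, which cut and rejoin that polymer, XTH32 was higher at 0.67 ± 0.14 and XTH33 lower at -1.07 ± 0.30 (14.3% each). XTH33 lay just above the threshold without the block (adjusted p = 0.05005). None of 8 tested endoglucanases of family GH9 was called, beside 15.7% of all probe sets. Class III peroxidases cross-link walls. Of the 6 tested in a short list of them 3 were lower (50%) and 0 higher, beside 7.76% and 7.91% of all probe sets. Without the block 2 of the 3 passed. The list held 7 probe sets, so it need not stand for the whole family. Its highest difference was 0.63, but AT5G15180, a peroxidase gene outside the list, was called higher at 1.87. Prx37 read 454, 210.5 and 279.7 with ABA, against 1574, 994 and 1225 in mock (-1.99 ± 0.13, adjusted p = 1.6e-06). AT5G19890 read 249, 119 and 56.3 with ABA, against 1444, 635 and 519.8 in mock (-2.54 ± 0.20).

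**Figure D3:**
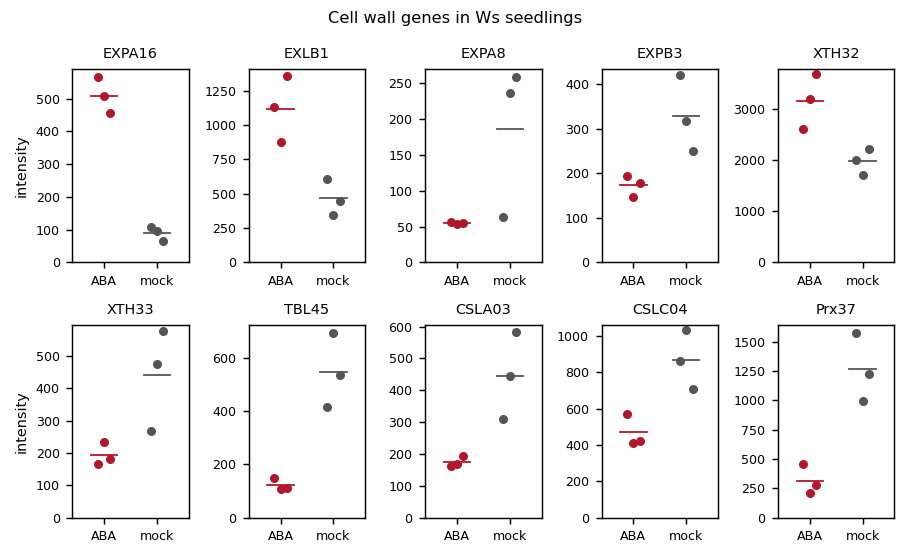
Intensity (linear axis from 0) on each of the 3 Ws ABA arrays (red) and 3 Ws mock arrays (grey) for 10 cell wall genes, with a line at each mean. EXPA16, EXLB1 and XTH32 are higher with ABA and the other 7 are lower.

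Most ribosome biogenesis factors were lower with ABA, but values in these data prompted their list, so it was not ranked against the other lists. These proteins transcribe, cut, modify and assemble ribosomal RNA in the nucleolus. Of 31 tested members 27 were lower (87.1%), beside 7.76% of all probe sets, and 0 higher, with a median of -0.71. The list held 57 loci, for which 31 probe sets were assigned to 1 gene, and all 31 were tested. It was written after the values of 6 members, all of them lower, had been seen. Among the other 25 members 21 were lower, with a median of -0.71. These 25 share the arrays and the prompted list with the 6, so their count is not an independent check. NRPA2, the second largest subunit of RNA polymerase I, read 453, 542 and 424 with ABA, against 798, 1022 and 758 in mock (-0.84 ± 0.13, adjusted p = 0.00086). DIM1A, which methylates ribosomal RNA, read 501, 493 and 368 with ABA, against 898, 877 and 672 in mock (-0.82 ± 0.16). AT1G06720 had the largest difference, with 161, 237 and 132 with ABA, against 335, 529 and 318 in mock (-1.09 ± 0.18, adjusted p = 0.0018). For 21 of the 31 the 3 ABA values lay apart from the 3 mock values, beside 21.2% of all tested probe sets.

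NRPA1, the largest subunit of the same polymerase, read 191, 332 and 218 with ABA, against 339.7, 684 and 297 in mock, lower with ABA in each pair and with replicate 2 highest in both groups, and did not pass (-0.74 ± 0.23, adjusted p = 0.053). Without the block 5 of the 31 passed. With the block, leaving out 1 Ws array left between 14 and 30 lower, the fewest without mock replicate 1 (14), ABA replicate 3 (15) and mock replicate 2 (18). In rop10-1 seedlings 14 of the 31 were lower with ABA and 0 higher, beside 7.51% of all probe sets lower and 8.11% higher there, with a median of -0.46. In bulk samples, fewer cells of a type and less RNA per cell cannot be told apart.

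**Figure D4:**
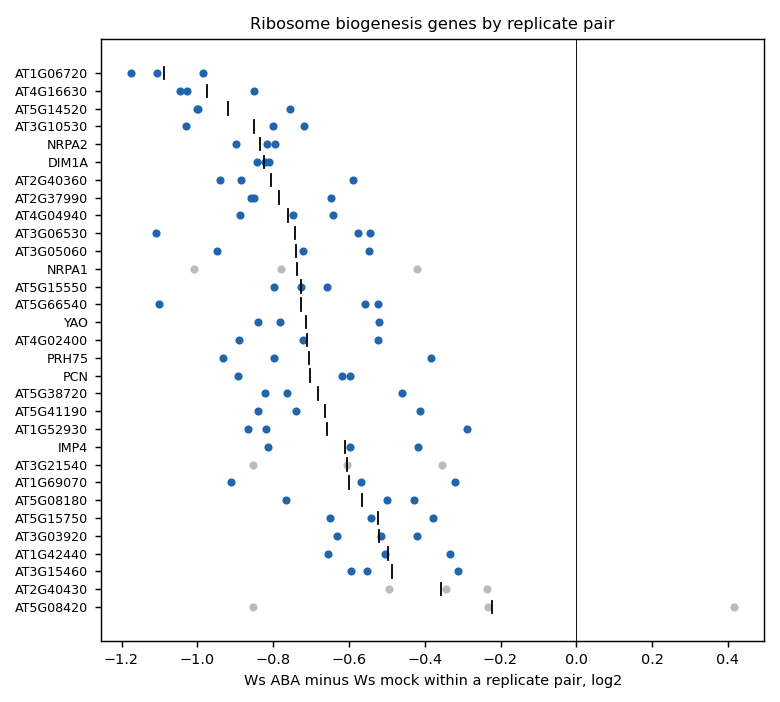
Difference between Ws ABA and Ws mock within each of the 3 replicate pairs (x axis, log2) for the 31 tested ribosome biogenesis genes, with a black bar at the mean. Blue points belong to the 27 genes that passed and grey points to the 4 that did not; 1 point, of AT5G08420, lies above 0.

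Several regulators of transcription were lower. BZIP61 read 54.8, 51.2 and 53.4 with ABA, against 88, 316 and 280.3 in mock (-1.65 ± 0.30, adjusted p = 0.003). HYH, a factor of light signalling, and BZIP53 were lower at -0.51 and -0.43, and bZIP58 was higher at 0.79; these 3 of the 12 tested bZIP genes did not pass without the block. WRKY22, a factor of defence, read 272, 301 and 214 with ABA, against 408, 417 and 407 in mock (-0.63 ± 0.16). AT5G61590, also called DEWAX, which represses wax synthesis, read 485, 275 and 439 with ABA, against 1849.9, 1551 and 1994 in mock (-2.16 ± 0.14, adjusted p = 1.9e-06). SPCH, which starts the stomatal lineage, was lower at -0.76 ± 0.20, with an adjusted p of 0.056 without the block.

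Other hormone and signal genes were tested in small numbers. Of 5 tested auxin IAA and GH3 genes 2 were higher (40%) and 0 lower. Of 6 tested calmodulin-like CML genes 2 were lower (33.3%) and 0 higher. Over all probe sets 7.91% were higher and 7.76% lower. WES1, a GH3 enzyme that conjugates auxin, read 1275, 1038 and 891 with ABA, against 432, 326 and 342 in mock (1.5 ± 0.13, adjusted p = 1.6e-05), and GH3.17 was higher at 1.03 ± 0.17. RALFL32, a signal peptide gene, was higher at 1.1 ± 0.18, the 1 called of 6. CHX20, a cation exchanger of guard cells, read 73.8, 51.6 and 82.7 with ABA, against 144, 169 and 135 in mock (-0.97 ± 0.22). The guard cell marker AT1G22690 was lower at -0.84 ± 0.25, with an adjusted p of 0.13 without the block, and the other 2 guard cell markers did not pass. CML42 and CML30, calmodulin-like calcium sensors, were lower at -0.82 and -0.71, the second with an adjusted p of 0.065 without the block. None of 3 touch-responsive genes passed, and 2 of 8 hypoxia-responsive genes did, AT1G19530 lower (-1.53 ± 0.25) and AT3G03270 higher (0.57 ± 0.11). Over all probe sets 15.7% were called.

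Organelle genomes showed no call. Of 66 tested plastid genes 0 were called, with a median of -0.15 and a range of -0.54 to 0.29, beside 15.7% of all probe sets called. Of 9 tested mitochondrial genes 0 were called, and 14 of the 23 mitochondrial probe sets lay below the filter on low values. The RNA polymerase II subunits (6 tested), the LSM proteins (6), the exocyst and SEC genes (9) and the organelle RNA editing factors (10) likewise held no call. With 15.7% of all probe sets called, lists this short can hold no call without differing from the rest.

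**Figure D5:**
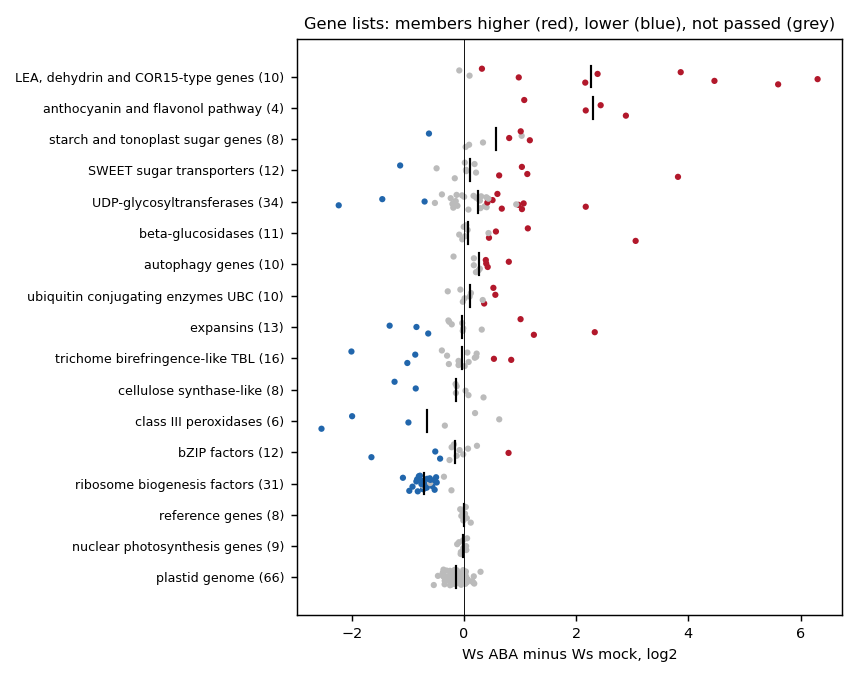
Difference between Ws ABA and Ws mock (x axis, log2) for the tested members of 17 gene lists, with the number tested in brackets and a black bar at the median. Red and blue points passed the test and grey points did not; the LEA and anthocyanin lists lie to the right, the ribosome biogenesis list to the left, and the reference, photosynthesis and plastid lists around 0.

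Several of the largest changes were in genes known here by locus code alone. AT2G37870 read 3150.3, 2559.8 and 3884 with ABA, against 214, 164 and 216 in mock (3.9 ± 0.17) and AT4G33550 read 2325, 2516 and 3293 with ABA, against 166, 143 and 195 in mock (3.88 ± 0.12, adjusted p = 6.6e-09). AT4G21870 had the largest fall of a named gene, with 209, 416 and 642 with ABA, against 1820.4, 4205 and 5148 in mock (-3.1 ± 0.21). Its level differed by more than 2-fold among the mock arrays, and each ABA array was lower than the mock array of its number. Of 6885 tested probe sets for which the table listed no gene, 610 were higher and 583 lower, beside 7.91% and 7.76% of all probe sets. The largest rise (6.66) and the largest fall (-4.82) of all probe sets were among them. So were 51 of the 98 probe sets called at least 4-fold higher and 13 of the 21 called at least 4-fold lower.

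The ABA response of Ws was set against that of rop10-1 by the difference of the 2 differences. None of 15922 probe sets passed (0%) in limma, and 803 (5.04%) had an unadjusted p under 0.05. AT3G28220, among the 15 largest rises, differed by 4.29 in Ws and 2.15 in rop10-1 (Ws minus rop10-1 2.14 ± 0.45, adjusted p = 0.91). The anthocyanin gene DFR differed by 2.44 in Ws and 0.98 in rop10-1 (1.45 ± 0.22, adjusted p = 0.45). UF3GT differed by 2.17 in Ws and 0.95 in rop10-1 (1.22 ± 0.26, adjusted p = 0.91), and AT5MAT by 1.07 in Ws and 0.49 in rop10-1 (0.58 ± 0.31, adjusted p = 0.91). COR15B differed by 2.38 in Ws and 1.17 in rop10-1 (1.21 ± 0.26, adjusted p = 0.91), and LEA4-5 by 5.6 and 5.79. A difference in response between the genotypes was therefore not shown for any gene.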

How the data were processed

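The labels describe TRIzol extraction of whole seedlings and biotin labelling. GCOS 1.1.1 is named in the submitters' processing notes, with no settings. Each deposited value is a linear intensity of 1 probe set (22810 in all), no column belonging to another sample. Arrays shared a 2% trimmed mean near 500, so no further scaling was applied.

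After removal of 64 controls and of the dimmest 30% by mean over 12 arrays, 15922 probe sets were tested as log2(intensity + 16) in limma 3.58.1 (R 4.3.3) with group means, the replicate number as a block, trended eBayes and a two-sided p adjusted by Benjamini-Hochberg. The numbers in the titles paired the arrays: deviations from group means correlated at 0.215 to 0.711 for the same number (18 pairs) and at -0.475 to 0.11 otherwise. The labels do not say what a number shares. Probe sets were named through the platform table, which can be old: among those tested, 8721 were tied to 1 gene, 316 to more and 6885 to none in that table; 8698 matched RefSeq (TAIR10.1).

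Simulated data for the Ws response (15922 genes, 5 runs) held 200 changed genes, an added replicate effect and independent normal noise. With the block, 82.2% of genes changed 2-fold were called, 98.6% of those changed 4-fold, and 5.32% of calls were false. Without the block these were 61.4%, 94.6% and 0.753%. The replicate effect was built in, so the simulation cannot decide whether the block is right for the data. Nor does it give the false share of the real calls.

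Named genes were the 15 largest rises and falls with no overlap, the 10 largest each among probe sets with a mock mean above 858, all measured ABA pathway genes and up to 5 called members per list; the text describes a part of these. UGT71C5, COR47, AT2G44060, AT1G54410, AT2G46140, LEA18, NRPA1, DIM1A and AT5G08420 fall outside the rule and were chosen after their values were seen. Lists and members were chosen with earlier results of these data known. Alternatives were the block, pseudocount, filter, normalization, trend, array weights, shared probes and each array left out.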

Additional observations from a re-analysis of the deposited data

How the results depend on the processing

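The count of changed probe sets depended most on the replicate block. It was 2495 with it (1259 higher, 1236 lower) and 1042 with no replicate block (645 higher, 397 lower). In a setting added after seeing the data, the Ws arrays alone without the block gave 571 (383 higher, 188 lower), 409 of them at least 2-fold, against 614. Without 1 array, the count lay between 1472 and 2673 with the block, and 1472 came without Ws mock replicate 2 and 1600 without Ws ABA replicate 3; without 1 of the 6 Ws arrays and without the block, it lay between 677 and 1092. Higher calls ranged from 806 to 1303 with the block and, for the 6 Ws arrays, from 412 to 749 without it, and lower calls from 666 to 1370 with the block (750 without Ws mock replicate 1, 762 without Ws ABA replicate 2, 704 without Ws ABA replicate 3) and, for the 6 Ws arrays, from 246 to 360 without it. The comparison of the genotypes gave 0 calls in every setting run. Of 179 named genes 127 were called, and no called gene changed sign; 42 lost their call with no replicate block and 67 with the Ws arrays alone without it, and at most 29 when 1 array was left out with the block. Leaving out 1 Ws array without the block ended 42 to 66, and the remaining settings ended at most 11 each. The median of the ribosome biogenesis list lay between -0.83 and -0.53 over all settings. The causes were not tested. The promoter motif shares were not run, since no promoter sequences were used here.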

Other observations

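Genes outside the lists, chosen after their values were seen, added other functions. CHI and ChiC, both chitinases, which cut chitin, read 1378, 794 and 694 with ABA, against 209, 106 and 158 in mock (2.46 ± 0.17) and 488, 608 and 474 with ABA, against 147, 182 and 97.3 in mock (1.8 ± 0.15). Both were higher in all 3 pairs with no overlap. HIS1-3, a linker histone known from drought, read 357, 245 and 233 with ABA, against 93.1, 65.6 and 78.6 in mock (1.61 ± 0.20, adjusted p = 0.00018). GPDHC1, a glycerol-3-phosphate dehydrogenase of the cytosol, was higher at 1.15 ± 0.12. ASPGB1, an asparaginase and by the naming rule 1 of the 15 largest falls, read 148, 201 and 370.1 with ABA, against 454, 636 and 1745 in mock (-1.77 ± 0.29). PSY1R, a receptor kinase for a growth peptide, was lower at -0.82 ± 0.13 (adjusted p = 0.00092).

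Neighbouring genes on a chromosome were counted in the RefSeq gene order. Of 2955 neighbour pairs with both genes tested, both were higher in 37, both lower in 21, and the pair moved in opposite directions in 27. Over all probe sets 7.91% were higher and 7.76% lower. The counts were not set against those of unlinked genes, so they do not show that neighbours change together. The pairs with the largest shared changes were BGLU24 with AT5G28520, COR15B with COR15A, and Prx37 with AT4G08780. Near-identical neighbours can share probes, and this was not tested for these pairs.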
